A study of Homo sapiens with 14 samples.

Results

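The subject is a set of 35 genes listed as p53 targets, followed through the knockdown of 4 transcription factors in OVCAR4 cells. OVCAR4 is an established line of high-grade serous ovarian cancer. Whether p53 activates each of these genes in the line was not tested. The members were taken by gene symbol from a list of p53 targets that was drawn up with earlier results of these data known, by a rule that holds no measured value, and all 35 were found among the 58219 genes of the count table. The low-count filter kept 34 of them among 21032 genes tested. The remaining member, SPATA18, which takes part in the removal of damaged mitochondria, had 0 to 4 counts in each library and is listed only by its counts. The targets CDKN1A, BAX, BBC3 and PMAIP1 are not members.

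p53 is a transcription factor that is stabilised by DNA damage and other stress and binds a paired DNA element to switch on genes for cell cycle arrest, DNA repair, metabolic adjustment and cell death. Several of its targets, MDM2 first among them, act back on p53 to limit it.

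Per the labels, siRNA was introduced at 120 nM by reverse transfection of 300000 cells, the medium was renewed at 24 hours and RNA was taken at 72 hours. The 14 libraries comprise 7 groups with 2 libraries each. Non-targeting siRNA was given in siNT1 and siNT2, which are together the controls, whereas siPAX8, siSOX17, siMECOM and siWT1 received siRNA against 1 factor each and siDual received siRNA against both PAX8 and SOX17. All groups are the same unmodified line, cultured in medium with 10% serum at passages 1 to 12, and none was given a DNA-damaging agent as far as the labels say. PAX8 and SOX17 are lineage factors of the Müllerian epithelium, MECOM is a zinc finger factor and WT1 is a marker of serous carcinoma. Nothing in the labels tells if both libraries of a group are independent transfections. The p-values thus measure the spread between these libraries alone, which may be technical. In a bulk RNA sample, fewer expressing cells and less RNA per cell cannot be told apart.

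Total counts lay between 40832825 and 49803860 per library. Levels are given as CPM, read counts scaled to a common library size, and a gene was called when its adjusted p from edgeR's quasi-likelihood test was under 0.05. The targeted transcripts checked the labels: PAX8 lay at 192 to 225 CPM in the controls and at 32.8 and 38.3 CPM in siPAX8, SOX17 at 104 to 119 and at 15.7 and 13.1 CPM in siSOX17, and MECOM at 125 to 133 and at 8.76 and 16.4 CPM in siMECOM. In siDual, PAX8 lay at 52.8 and 50.6 CPM, above its level in siPAX8, and SOX17 at 15.9 and 17.7 CPM. The factors also moved in groups that did not target them: MECOM lay at 45.6 and 43.6 CPM in siSOX17 and 47.5 and 51.1 in siDual, SOX17 at 239.8 and 219 in siMECOM and 77.9 and 82.9 in siPAX8, and PAX8 at 266 and 273 in siSOX17 and 112 and 118 in siWT1. WT1 was already near the floor in the controls, at 0.330 to 0.430 CPM, and lay at 0 and 0.0191 CPM in siWT1, so the siWT1 group lost a transcript that was scarce to begin with. The 7 epithelial markers, EPCAM and keratins among them, were all detected and summed to 4058 to 4854 CPM in the controls, 8331 to 10708 in siPAX8, 13011 to 13279 in siSOX17, 18155 to 20800 in siDual, 4438 to 5184 in siMECOM and 3755 to 4000.4 in siWT1. KRT7, KRT8 and KRT18 made up most of each sum. In siDual 4 of the 7 were called higher and 2 lower, the latter being WFDC2 and the targeted PAX8. The 8 fibroblast markers summed to 35.4 to 45.7 CPM in the controls, 66.8 to 70.8 in siPAX8, 62.0 to 67.1 in siSOX17, 76.1 to 84.1 in siDual, 26.5 to 27.8 in siMECOM and 26.5 to 28.5 in siWT1, nearly all of it COL1A1. The 8 immune markers summed to 19.1 to 22.9 CPM in the controls, 34.7 to 39.0 in siPAX8, 35.1 to 36.1 in siSOX17, 41.9 to 44.7 in siDual, 12.7 to 13.2 in siMECOM and 10.2 to 11.9 in siWT1, nearly all of it CD68, while the leukocyte marker PTPRC lay at 0 to 0.133 CPM and MS4A1 at 0 in every library. The 6 endothelial markers summed to 8.86 to 11.0 CPM in the controls, 20.3 to 21.1 in siPAX8, 6.66 to 7.29 in siSOX17, 6.44 to 7.47 in siDual, 9.6 to 10.2 in siMECOM and 7.43 to 7.56 in siWT1. CDH5 supplied 12.4 and 12.6 CPM in siPAX8, against 3.92 to 5.32 CPM in the controls. These sums moved with the groups, and their part in the members' changes was not tested. The share of counts from mitochondrially encoded genes was 5.34 to 6.13% in the controls and 7.91 to 11.0% in the knockdown libraries, and it moved with every comparison against the controls. With these genes left out of the library sizes, 4 of 178 called member values lost their call and 3 others gained one. Exons of 14 members overlap those of another gene, among them XPC with LSM3, POLH with GTPBP2, MDM2 with CPM, CYFIP2 with ADAM19, APAF1 with ANKS1B, PLK3 with TCTEX1D4 and TP53I3 with FAM228B, and because the strand setting of the counting is not stated, reads of such pairs cannot be told apart.

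The DNA element that p53 binds is a pair of p53 consensus half-sites, each 10 bases long and reading the same on both strands. RefSeq promoter windows (GRCh38.p14, 250 bases before to 50 after a start site) were matched for 31 of the 35 members, in 48 windows, and searched for pairs of half-sites with up to 13 bases between them, with the fixed C and G of each half-site required. A pair with at most 2 mismatches lay in a window of 4 of the 31 members, against 3.62% of all 27305 genes with a window. With 3 mismatches allowed the counts were 10 of 31 members and 15.3% of all genes. A perfect pair was found in the DDB2 window, and in 10 of the 35116 windows in all. The 4 member pairs with the fewest mismatches are shown because they are the members whose searched windows carry letters closest to the p53 element. Capitals mark the half-sites.
DDB2: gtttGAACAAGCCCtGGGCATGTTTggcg
AEN: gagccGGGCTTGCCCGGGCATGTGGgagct
FDXR: GGGCGGGCCCgggcaggagcGGGCTTGCCC
MDM2: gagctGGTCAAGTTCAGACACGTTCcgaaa
The DDB2 sequence is chr11:47214975-47215003 on the plus strand, and its pair starts 5 bases after a start site. The AEN sequence is chr15:88621301-88621330 on the plus strand, with the pair 34 bases before a start site, and that of MDM2 is chr12:68808918-68808947 on the plus strand, 94 bases before one. The FDXR sequence is chr17:74872996-74873025 on the minus strand, 31 bases before a start site. A match is a description of letters and not a measured binding site. The 4 genes did not share a pattern: MDM2 was lower in 3 knockdowns and higher in siWT1, DDB2 and FDXR were lowest in siPAX8, and AEN was lower in siSOX17 and siDual and higher in siWT1, as given with their values further on.

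Expressed per kilobase of exon, the control levels of the members spanned from 76.2 CPM per kb for SFN and 75.4 for CCNG1 down to 0.345 for TP53INP1 and 0.00542 for SPATA18. SPATA18 summed to 5 counts over the 4 control libraries and to 0 over the 4 libraries of siMECOM and siWT1, a difference that these counts are too few to weigh. The next levels after SFN and CCNG1 were PHLDA3 at 27.9 and PLK2 at 21.2 CPM per kb. SFN at 100.6 ± 12.2 CPM (SD, n = 4) and CCNG1 at 234 ± 8.87 CPM were close once length was accounted for.

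The members moved in both directions in every knockdown, with more of them higher than lower. In siPAX8, 17 of the 34 tested members were called higher and 11 lower, where 26.9% of all tested genes were called higher and 25.4% lower. In siSOX17, 19 were higher and 6 lower, beside 27.2% and 25.5% of all genes. In siDual the counts were 19 and 5, beside 28.9% and 27.3%. The share of members called higher in these groups, 55.9% in both siSOX17 and siDual, lay above that of all genes, and the share called lower lay above it in siPAX8 (32.4%) and below it in the other two. In siMECOM, 13 members were higher and 5 lower, beside 16.5% and 16.1% of all genes. In siWT1, 13 were higher and 8 lower, beside 17.7% and 19.8%. The share called lower was near the background in siMECOM, at 14.7%, and at 23.5% in siWT1 the count fell to 5 without siWT1 replicate 1. Among the 16691 genes with at least 1 CPM in 2 libraries, the share called higher was 30.9% in siPAX8, 30.6% in siSOX17, 32.6% in siDual, 19.6% in siMECOM and 21.8% in siWT1. The share called lower among them was 29.6% in siPAX8, 29.8% in siSOX17, 31.7% in siDual, 18.8% in siMECOM and 23.4% in siWT1, so the members' lower shares in siPAX8 and siWT1 were near that background. The median log2 fold change of the members was 0.22 in siPAX8, 0.32 in siSOX17, 0.27 in siDual, 0.15 in siMECOM and 0.15 in siWT1, and that of all genes lay between −0.01 and 0.01. All 5 comparisons share the 4 control libraries. Between the control siRNAs, edgeR called 0 members higher and 0 lower, beside 0.242% and 0.0571% of all genes. At an unadjusted p under 0.05 there were 4 members (SFN, BTG2, PLK2 and TP53INP1), beside 1608 of the 21032 genes tested, and DESeq2 called 1, BTG2, at 0.48 higher in siNT1 (adjusted p = 0.0168).

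**Figure D1:**
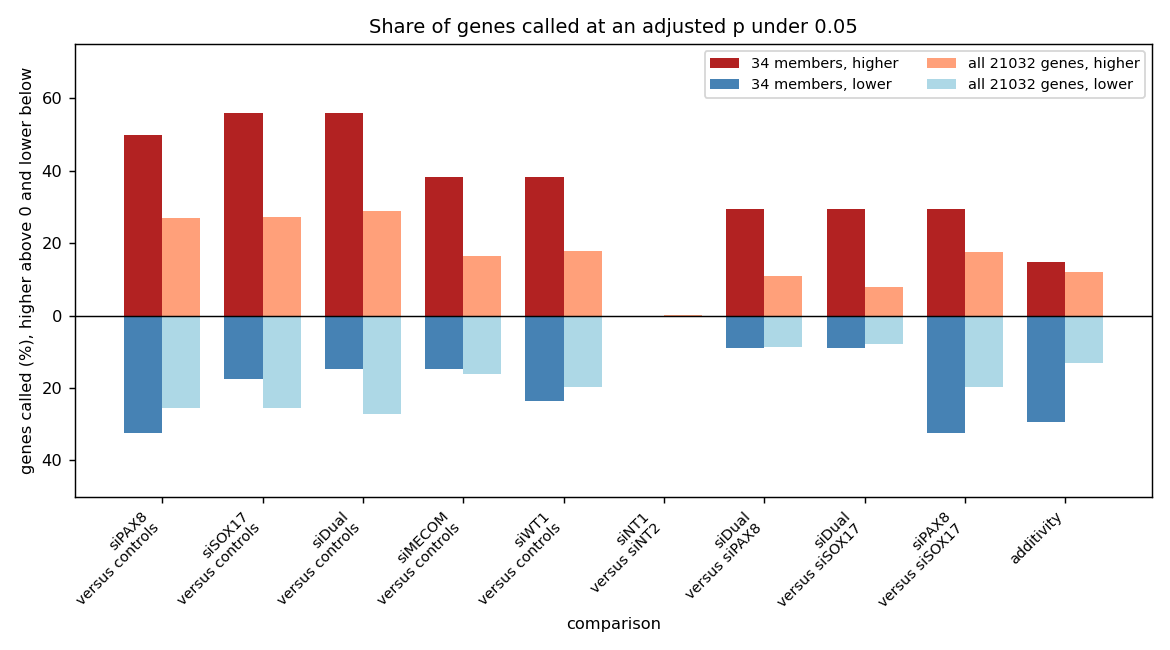
Share of genes called at an adjusted p under 0.05 in each of the 10 comparisons, as percent, with genes called higher drawn upward and genes called lower drawn downward; dark bars are the 34 tested members and pale bars all tested genes. In the 5 comparisons with the controls the dark upward bars stand at 38.2 to 55.9% and the pale ones at 16.5 to 28.9%.

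**Figure D2:**
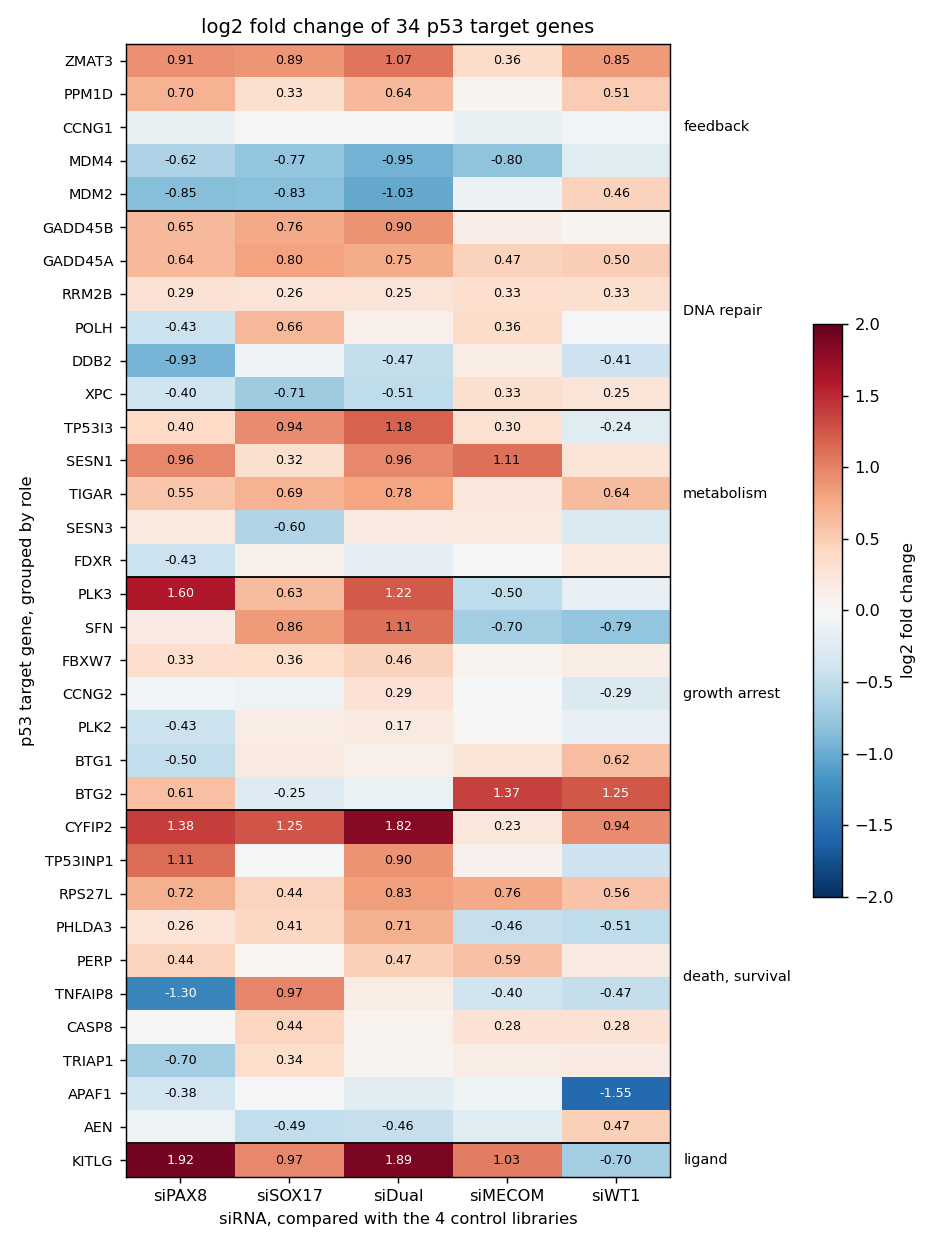
Heat map of the log2 fold change of the 34 tested members (rows, ordered by role and, within a role, by the value in siDual) in the 5 knockdowns (columns) against the 4 control libraries. Red is higher and blue is lower, and the value is printed where the gene was called; KITLG has the highest value, 1.92 in siPAX8, and APAF1 the lowest, −1.55 in siWT1.

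The feedback members regulate p53 itself. MDM2, the ubiquitin ligase that marks p53 for degradation, lay at 28.9 and 32.5 CPM in siNT1, 35.2 and 27.0 in siNT2, 16.0 and 18.4 in siPAX8, 17.6 and 17.1 in siSOX17, 14.6 and 15.7 in siDual, 28.0 and 29.01 in siMECOM, and 44.7 and 40.1 in siWT1. The libraries of siPAX8, siSOX17 and siDual lay below all controls, those of siWT1 above all controls, and those of siMECOM among them. MDM2 fell in siPAX8 (log2 −0.85 ± 0.10, adjusted p = 9.7e-07), in siSOX17 (−0.83 ± 0.10, adjusted p = 1.41e-06) and in siDual (−1.03 ± 0.10, adjusted p = 8.3e-08), and it rose in siWT1 (0.46 ± 0.09, adjusted p = 0.000758). In siMECOM the value was −0.12 ± 0.10. Its paralog MDM4, which binds p53 and blocks its activity, lay at 8.67, 9.97, 11.1 and 8.63 CPM in the controls, 5.50 and 6.97 in siPAX8, 6.09 and 5.12 in siSOX17, 4.60 and 5.33 in siDual, 5.30 and 5.71 in siMECOM, and 8.06 and 8.21 in siWT1. MDM4 was below the controls in all knockdown libraries, and was called lower in siPAX8 (−0.62 ± 0.13, adjusted p = 0.000498), siSOX17 (−0.77 ± 0.13, adjusted p = 7.63e-05), siDual (−0.95 ± 0.14, adjusted p = 7.45e-06) and siMECOM (−0.80 ± 0.13, adjusted p = 0.000107). In siMECOM the value of MDM4 was −0.80 and that of MDM2 −0.12. In siWT1 they were −0.24, not called, and 0.46.

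ZMAT3, an RNA-binding zinc finger protein, and PPM1D, the phosphatase WIP1 that removes activating phosphates from p53 and its upstream kinases, were higher where MDM2 was lower in the PAX8 and SOX17 knockdowns. ZMAT3 lay at 12.2 and 11.6 CPM in siNT1, 12.3 and 10.6 in siNT2, 21.0 and 23.0 in siPAX8, 22.1 and 21.2 in siSOX17, 23.6 and 25.5 in siDual, 15.2 and 14.8 in siMECOM, and 22.7 and 19.4 in siWT1. All knockdown libraries lay above all controls. ZMAT3 rose by 0.91 ± 0.09 in siPAX8 (adjusted p = 4.6e-08), 0.89 ± 0.09 in siSOX17 (adjusted p = 8.41e-08), 1.07 ± 0.09 in siDual (adjusted p = 4.1e-09), 0.36 ± 0.09 in siMECOM (adjusted p = 0.00435) and 0.85 ± 0.09 in siWT1 (adjusted p = 3.71e-07). PPM1D, at 20.1 ± 0.863 CPM in the controls, rose by 0.70 in siPAX8, 0.33 in siSOX17, 0.64 in siDual and 0.51 in siWT1, and was 0.05 higher, not called, in siMECOM. CCNG1, cyclin G1, which recruits a phosphatase to MDM2, was called in no knockdown by edgeR, with log2 values from −0.15 in siMECOM to 0.02 in siSOX17. Its 4 control libraries lay at 222 to 242 CPM and its knockdown libraries at 193 to 244 CPM. Its relative CCNG2 is described with the cell cycle members.

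**Figure D3:**
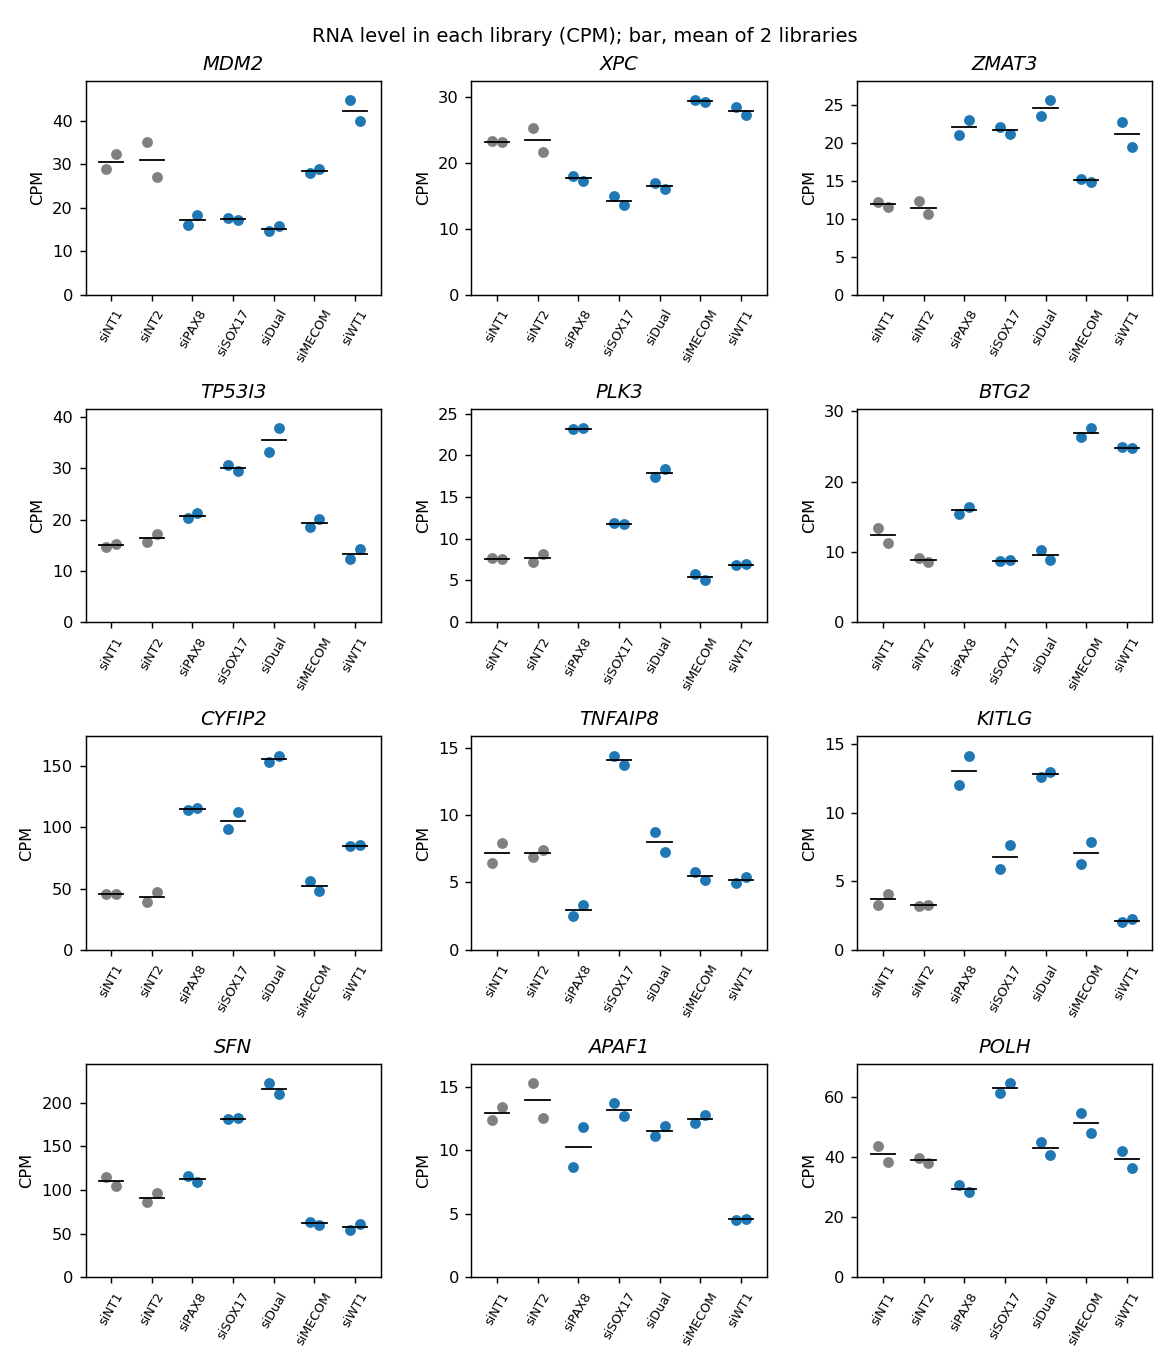
CPM of 12 members in each of the 14 libraries on a linear axis from 0; points are libraries, grey for the control siRNAs and blue for the knockdowns, and the bar is the mean of 2 libraries. MDM2 and XPC are low in siPAX8, siSOX17 and siDual, where ZMAT3 and CYFIP2 are high, and APAF1 stands apart in siWT1 at 4.55 and 4.61 CPM.

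The members for DNA repair and nucleotide supply split by gene. The damage-recognition genes XPC and DDB2, which act in nucleotide excision repair, were lower in PAX8 knockdown. XPC lay at 23.2 and 23.1 CPM in siNT1, 25.2 and 21.7 in siNT2, 18.0 and 17.2 in siPAX8, 14.9 and 13.5 in siSOX17, 16.8 and 16.0 in siDual, 29.4 and 29.1 in siMECOM, and 28.4 and 27.2 in siWT1. The groups did not overlap the controls: XPC fell in siPAX8 (−0.40 ± 0.08, adjusted p = 0.000353), siSOX17 (−0.71 ± 0.08, adjusted p = 8.37e-07) and siDual (−0.51 ± 0.08, adjusted p = 3.46e-05), and was called higher in siMECOM (0.33 ± 0.08, adjusted p = 0.00303) and siWT1 (0.25 ± 0.08, adjusted p = 0.0151). The siWT1 call was lost without siWT1 replicate 1 (0.22). DDB2 lay at 6.74 and 4.92 CPM in siNT1, 4.87 and 4.47 in siNT2, 2.89 and 2.56 in siPAX8, 5.07 and 4.70 in siSOX17, 4.34 and 3.19 in siDual, 6.10 and 5.51 in siMECOM, and 4.04 and 3.79 in siWT1. It fell in siPAX8 (−0.93 ± 0.15, adjusted p = 4.76e-05), while the siSOX17 libraries lay among the controls (−0.09 ± 0.15). DDB2 was also called lower in siDual (−0.48 ± 0.15, adjusted p = 0.0114) and siWT1 (−0.41 ± 0.14, adjusted p = 0.0314). In siDual the call was lost without siNT1 replicate 1 (−0.36) or siDual replicate 2 (−0.27), and in siWT1 without siNT1 replicate 1 (−0.29), siNT2 replicate 1 (−0.38), siWT1 replicate 1 (−0.46) or siWT1 replicate 2 (−0.37). Both calls were also lost against siNT2 alone (−0.318 in siDual and −0.255 in siWT1).

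POLH, the polymerase eta that copies past ultraviolet damage, moved oppositely in the single knockdowns of PAX8 and SOX17. It lay at 43.5 and 38.3 CPM in siNT1, 39.7 and 38.02 in siNT2, 30.5 and 28.4 in siPAX8, 61.3 and 64.4 in siSOX17, 45.1 and 40.5 in siDual, 54.5 and 48.0 in siMECOM, and 42.1 and 36.2 in siWT1. The siPAX8 libraries lay below all controls and the siSOX17 libraries above all of them, and POLH fell by 0.43 ± 0.09 in siPAX8 (adjusted p = 0.000274) and rose by 0.66 ± 0.08 in siSOX17 (adjusted p = 1.36e-06). It was 0.36 ± 0.08 higher in siMECOM (adjusted p = 0.00196), a call lost without siMECOM replicate 1 (0.27), and siDual (0.10) and siWT1 (−0.03) were not called. RRM2B, the ribonucleotide reductase subunit that supplies nucleotides for repair, was called higher by 0.29 in siPAX8, 0.26 in siSOX17, 0.25 in siDual, 0.33 in siMECOM and 0.33 in siWT1, with adjusted p from 0.0102 to 0.0319. These calls were weak. Against siNT2 alone every one was lost (0.19 in siPAX8, 0.17 in siSOX17, 0.16 in siDual, 0.23 in siMECOM and 0.23 in siWT1). Without siNT1 replicate 1 those of siPAX8 (0.22), siSOX17 (0.20), siDual (0.19) and siMECOM (0.26) were lost, and without siNT2 replicate 2 the same 4 (0.25, 0.20, 0.18 and 0.26). They were also lost without siPAX8 replicate 2 (0.20), siSOX17 replicate 1 (0.25) or 2 (0.28), siDual replicate 1 (0.29) or 2 (0.21), siMECOM replicate 1 (0.26) and siWT1 replicate 1 (0.17), each in its own group.

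GADD45A and GADD45B, paralogs that bind stress kinases and PCNA, were both higher in PAX8 and SOX17 knockdown. GADD45A lay at 35.9 and 27.9 CPM in siNT1, 31.2 and 26.8 in siNT2, 46.1 and 48.8 in siPAX8, 57.7 and 47.8 in siSOX17, 52.2 and 49.9 in siDual, 38.1 and 45.8 in siMECOM, and 42.6 and 43.3 in siWT1. GADD45B lay at 13.3 and 12.8 CPM in siNT1, 12.9 and 12.4 in siNT2, 19.4 and 20.9 in siPAX8, 23.0 and 20.7 in siSOX17, 25.3 and 22.6 in siDual, 12.1 and 16.0 in siMECOM, and 12.8 and 13.9 in siWT1. Every knockdown library of GADD45A lay above the controls, whereas GADD45B overlapped the controls in siMECOM and siWT1. GADD45A rose by 0.64 in siPAX8, 0.80 in siSOX17, 0.75 in siDual and 0.50 in siWT1. In siMECOM it was 0.47 ± 0.10 higher (adjusted p = 0.00146), which was not called without siMECOM replicate 2 (0.33). GADD45B rose by 0.65, 0.76 and 0.90 in siPAX8, siSOX17 and siDual, and its values were 0.13 in siMECOM and 0.05 in siWT1.

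Among the members for metabolism and redox balance, TP53I3, TIGAR and SESN1 were higher in PAX8 and SOX17 knockdown. TP53I3, a quinone oxidoreductase known as PIG3, lay at 14.7 and 15.2 CPM in siNT1, 15.6 and 17.3 in siNT2, 20.3 and 21.2 in siPAX8, 30.7 and 29.5 in siSOX17, 33.2 and 37.8 in siDual, 18.5 and 20.1 in siMECOM, and 12.3 and 14.3 in siWT1. No group overlapped the controls, and siWT1 was the 1 group below them. TP53I3 rose by 0.40 ± 0.09 in siPAX8 (adjusted p = 0.00059), 0.94 ± 0.08 in siSOX17 (adjusted p = 1.92e-08) and 1.18 ± 0.08 in siDual (adjusted p = 4.83e-10). It was also called higher in siMECOM (0.30, lost without siMECOM replicate 2, 0.24) and lower in siWT1 (−0.24). The siWT1 call was lost without siNT1 replicate 1 (−0.25) or 2 (−0.23), siNT2 replicate 2 (−0.18) or siWT1 replicate 1 (−0.14), and with DESeq2. It was also lost against siNT1 alone (−0.17), and the siMECOM call against siNT2 alone (0.236). TIGAR, a phosphatase that diverts glucose from glycolysis to the pentose phosphate pathway, lay at 13.1, 13.8, 13.7 and 12.5 CPM in the controls and between 15.5 and 25.2 CPM in the knockdown libraries. It rose by 0.55 in siPAX8, 0.69 in siSOX17, 0.78 in siDual and 0.64 ± 0.09 in siWT1 (adjusted p = 1.2e-05), and its value in siMECOM was 0.23 (adjusted p = 0.0535).

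The sestrins SESN1 and SESN3, stress proteins that restrain the growth kinase mTORC1, differed. SESN1 lay at 3.32 and 4.05 CPM in siNT1, 4.05 and 4.44 in siNT2, 7.67 and 7.80 in siPAX8, 4.70 and 5.17 in siSOX17, 7.42 and 7.99 in siDual, 7.92 and 9.14 in siMECOM, and 4.48 and 5.02 in siWT1. All knockdown libraries lay above the controls, with siPAX8, siDual and siMECOM well above them. SESN1 rose by 0.96 ± 0.11 in siPAX8 (adjusted p = 7.1e-07), 0.96 ± 0.12 in siDual (adjusted p = 7.34e-07) and 1.11 ± 0.11 in siMECOM (adjusted p = 3.36e-07). In siSOX17 it was 0.32 higher (adjusted p = 0.0365), a call lost without siNT1 replicate 1 (0.25), siNT2 replicate 1 (0.28), siSOX17 replicate 1 (0.39) or siSOX17 replicate 2 (0.25) and with DESeq2, and in siWT1 it was 0.26, not called. The siSOX17 call of SESN1 was also lost against siNT2 alone (0.218). SESN3 had the widest spread of controls in this group, at 6.13, 10.4, 7.29 and 6.56 CPM, and was called lower in siSOX17 at 5.15 and 4.88 CPM (−0.60 ± 0.22, adjusted p = 0.0315). That call was lost without siNT1 replicate 2 (−0.38), siNT2 replicate 1 (−0.56), siSOX17 replicate 1 (−0.64) or siSOX17 replicate 2 (−0.56) and with DESeq2. It was lost against siNT2 alone as well (−0.466). FDXR, the ferredoxin reductase of mitochondria, was lower in siPAX8 at 7.90 and 5.64 CPM against 10.7, 9.07, 8.64 and 8.34 CPM in the controls (−0.43 ± 0.13, adjusted p = 0.00986), but its value without siPAX8 replicate 2 was −0.21 and not called. Against siNT2 alone the siPAX8 value of FDXR was −0.325 and not called either. Its values in the other groups, from −0.19 in siDual to 0.19 in siWT1, were not called.

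Growth arrest and cell cycle members moved in both directions in all knockdowns but siDual, where 5 of 7 were called higher and 0 lower. SFN, the 14-3-3 sigma protein that holds mitotic cyclin-dependent kinase in the cytoplasm, lay at 115 and 104 CPM in siNT1, 86.3 and 96.5 in siNT2, 117 and 109 in siPAX8, 181 and 182 in siSOX17, 222 and 209.7 in siDual, 63.4 and 60.1 in siMECOM, and 54.4 and 61.2 in siWT1. The libraries of siSOX17 and siDual lay above all controls and those of siMECOM and siWT1 below them, while siPAX8 overlapped them. SFN rose in siSOX17 (0.86 ± 0.07, adjusted p = 7.37e-09) and siDual (1.11 ± 0.07, adjusted p = 1.27e-10) and fell in siMECOM (−0.70 ± 0.08, adjusted p = 9.01e-07) and siWT1 (−0.79 ± 0.08, adjusted p = 1.64e-07). The value in siPAX8 was 0.17 (adjusted p = 0.0598).

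The polo-like kinases PLK2 and PLK3, which respond to stress and growth factors, were unlike each other. PLK3 lay at 7.66 and 7.52 CPM in siNT1, 7.25 and 8.21 in siNT2, 23.1 and 23.3 in siPAX8, 11.9 and 11.8 in siSOX17, 17.4 and 18.4 in siDual, 5.72 and 5.10 in siMECOM, and 6.80 and 6.93 in siWT1. It was highest in siPAX8 (1.6 ± 0.08, adjusted p = 9.26e-12), rose in siSOX17 (0.63 ± 0.09, adjusted p = 8.68e-06) and siDual (1.22 ± 0.09, adjusted p = 4.96e-10), and fell in siMECOM (−0.50 ± 0.10, adjusted p = 0.000514). PLK2 was lower in siPAX8, at 73.9 and 75.1 CPM against 93.9, 87.9, 116 and 107 CPM in the controls (−0.43 ± 0.07, adjusted p = 5.09e-05). Its siDual libraries, at 111 and 116 CPM, overlapped the controls, although edgeR called them higher by 0.17 (adjusted p = 0.0438). That call failed in 10 of the 14 fits that each left out 1 library, with values of 0.12 without siNT2 replicate 2, 0.13 without siDual replicate 2, 0.15 without siNT1 replicate 2, 0.21 without siDual replicate 1 and 0.17 without a library of siPAX8, siSOX17 or siMECOM. It was also lost against siNT2 alone (0.026).

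BTG1 and BTG2, antiproliferative paralogs that recruit mRNA deadenylases, were both higher in siWT1. BTG2 lay at 13.4 and 11.3 CPM in siNT1, 9.08 and 8.63 in siNT2, 15.4 and 16.4 in siPAX8, 8.71 and 8.81 in siSOX17, 10.3 and 8.87 in siDual, 26.3 and 27.6 in siMECOM, and 24.9 and 24.8 in siWT1. The siMECOM and siWT1 libraries lay above every control library, and the increases were 1.37 ± 0.09 in siMECOM (adjusted p = 5.18e-10) and 1.25 ± 0.09 in siWT1 (adjusted p = 1.71e-09). BTG2 also rose in siPAX8 (0.61 ± 0.09, adjusted p = 1.14e-05). In siSOX17 it was called lower (−0.25 ± 0.10, adjusted p = 0.0336) with libraries that overlapped the controls, and against siNT2 alone the value was −0.02. That call was also lost without siNT1 replicate 1 (−0.19), siNT2 replicate 1 (−0.23), siSOX17 replicate 1 (−0.25) or siSOX17 replicate 2 (−0.26). BTG1 lay at 9.57, 10.0, 8.42 and 9.46 CPM in the controls, 6.54 and 6.71 in siPAX8, and 13.7 and 14.97 in siWT1. It fell in siPAX8 (−0.50 ± 0.11, adjusted p = 0.00105) and rose in siWT1 (0.62 ± 0.10, adjusted p = 0.000106), so that in siPAX8 the paralogs were called in opposite directions. The values of BTG1 in siSOX17, siDual and siMECOM, 0.19, 0.10 and 0.26, were not called.

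CCNG2, cyclin G2, and FBXW7, the ubiquitin ligase subunit that marks cyclin E and MYC, changed little. CCNG2 was called higher in siDual (0.29, lost without siDual replicate 1, 0.20) and lower in siWT1 (−0.29, lost without siWT1 replicate 1, −0.24), and its values in siPAX8 (−0.05), siSOX17 (−0.11) and siMECOM (−0.04) were not called. The siDual call was also lost against siNT2 alone (0.204), and the siWT1 call against siNT1 alone (−0.201). FBXW7 rose by 0.36 in siSOX17 and 0.46 in siDual and was called higher in siPAX8 (0.33), which was lost without siPAX8 replicate 2 (0.24). Its control libraries lay at 8.05 to 8.93 CPM and its siDual libraries at 10.6 and 12.5 CPM.

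Of the 11 members tied to cell death and survival, 10 were tested. CYFIP2, an adaptor of the actin-regulating WAVE complex, and RPS27L, a ribosomal protein S27 relative that binds MDM2, were higher in the groups in which they were called. CYFIP2 lay at 45.3 and 45.5 CPM in siNT1, 39.1 and 47.0 in siNT2, 114 and 116 in siPAX8, 98.7 and 112 in siSOX17, 154 and 159 in siDual, 55.9 and 47.7 in siMECOM, and 84.8 and 85.4 in siWT1. All knockdown libraries lay above the controls, by little in siMECOM. CYFIP2 rose by 1.38 ± 0.08 in siPAX8 (adjusted p = 2.87e-11), 1.25 ± 0.08 in siSOX17 (adjusted p = 1.63e-10), 1.82 ± 0.08 in siDual (adjusted p = 5.25e-13) and 0.94 ± 0.08 in siWT1 (adjusted p = 2.62e-08). In siMECOM it was 0.23 higher (adjusted p = 0.0398), and the call was lost with DESeq2 and without siNT1 replicate 1 (0.22), siNT1 replicate 2 (0.23), siNT2 replicate 1 (0.16), siDual replicate 1 or 2 (0.23 each) or siMECOM replicate 1 (0.10). It was also lost against siNT1 alone (0.188). RPS27L lay at 14.9, 17.7, 15.8 and 19.8 CPM in the controls and at 22.9 to 32.6 CPM in the knockdown libraries, which did not overlap. It rose by 0.72 in siPAX8, 0.44 in siSOX17, 0.83 in siDual, 0.76 ± 0.10 in siMECOM (adjusted p = 5.36e-06) and 0.56 ± 0.10 in siWT1 (adjusted p = 0.000135).

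TNFAIP8, a lipid-binding protein known to restrain caspase activity, had the widest gap of all tested members between siPAX8 and siSOX17. It lay at 6.46 and 7.91 CPM in siNT1, 6.89 and 7.44 in siNT2, 2.53 and 3.32 in siPAX8, 14.4 and 13.7 in siSOX17, 8.70 and 7.27 in siDual, 5.75 and 5.18 in siMECOM, and 4.95 and 5.42 in siWT1. The siPAX8 libraries lay below all controls and the siSOX17 libraries above them, while 1 siDual library lay above all controls and the other among them. TNFAIP8 fell in siPAX8 (−1.30 ± 0.14, adjusted p = 1.85e-07) and rose in siSOX17 (0.97 ± 0.11, adjusted p = 8.39e-07), with 0.15 in siDual, not called. It was called lower in siMECOM (−0.40 ± 0.13, adjusted p = 0.0205) and siWT1 (−0.47 ± 0.12, adjusted p = 0.00599). The siMECOM call was lost without siNT1 replicate 2 (−0.32) or siMECOM replicate 2 (−0.32), and the siWT1 call without siWT1 replicate 1 (−0.41). TRIAP1, which carries phosphatidic acid within mitochondria and protects from apoptosis, had the same order of siPAX8, siDual and siSOX17: 11.5, 12.0, 11.2 and 12.2 CPM in the controls, 7.33 and 7.11 in siPAX8, 14.7 and 15.02 in siSOX17, and 11.7 and 12.4 in siDual. TRIAP1 fell in siPAX8 (−0.70 ± 0.10, adjusted p = 5.66e-06) and rose by 0.34 in siSOX17, and its values in siDual, siMECOM and siWT1, from 0.05 to 0.16, were not called.

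APAF1, the scaffold of the apoptosome that activates caspase-9, stood apart in siWT1. It lay at 12.4 and 13.4 CPM in siNT1, 15.3 and 12.6 in siNT2, 8.73 and 11.9 in siPAX8, 13.7 and 12.7 in siSOX17, 11.2 and 11.9 in siDual, 12.1 and 12.8 in siMECOM, and 4.55 and 4.61 in siWT1. The fall in siWT1 was −1.55 ± 0.13 (adjusted p = 1.55e-08), in the group whose target, WT1, was near the floor in the controls. APAF1 was also called lower in siPAX8 (−0.38 ± 0.12, adjusted p = 0.00883), but not without siPAX8 replicate 1 (−0.18). CASP8, the initiator caspase of death receptors, rose by 0.44 in siSOX17 and was called 0.28 higher in both siMECOM and siWT1, with values of 0.02 in siPAX8 and 0.07 in siDual. The siMECOM call of CASP8 was lost without siNT1 replicate 1 (0.23), siNT2 replicate 2 (0.24), siMECOM replicate 1 (0.25) or siMECOM replicate 2 (0.31), and the siWT1 call without siWT1 replicate 1 (0.26). Both calls were lost against siNT1 alone (0.244 each).

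TP53INP1, a nuclear protein that promotes p53 phosphorylation and autophagy, was high where PAX8 was targeted. It lay at 1.32 and 1.88 CPM in siNT1, 2.73 and 1.91 in siNT2, 3.59 and 4.79 in siPAX8, 1.79 and 1.99 in siSOX17, 3.46 and 3.78 in siDual, 1.98 and 2.14 in siMECOM, and 1.28 and 1.63 in siWT1. The libraries of siPAX8 and siDual lay above the controls and all others overlapped them, and TP53INP1 rose in siPAX8 (1.11 ± 0.17, adjusted p = 2.47e-05) and siDual (0.90 ± 0.18, adjusted p = 0.000276). PERP, a desmosomal membrane protein, rose by 0.44 in siPAX8, 0.47 in siDual and 0.59 ± 0.07 in siMECOM (adjusted p = 4.05e-06), and was not called in siSOX17 (0.05) or siWT1 (0.18). AEN, a nuclease of apoptotic cells, was lower in siSOX17 at 9.68 and 10.3 CPM (−0.49 ± 0.10, adjusted p = 0.000357) and in siDual at 9.23 and 11.0 CPM (−0.46 ± 0.10, adjusted p = 0.00048). It was higher in siWT1 at 20.1 and 18.8 CPM (0.47 ± 0.09, adjusted p = 0.00038), against 14.8, 12.9, 13.8 and 14.5 CPM in the controls. PHLDA3, which blocks membrane recruitment of the survival kinase AKT, lay at 90.0, 83.5, 82.9 and 93.7 CPM in the controls, 107 and 102 in siPAX8, 114 and 118 in siSOX17, 146 and 139 in siDual, 69.0 and 58.5 in siMECOM, and 54.4 and 68.4 in siWT1. It rose in siSOX17 (0.41) and siDual (0.71) and fell in siMECOM (−0.46 ± 0.09, adjusted p = 0.000633) and siWT1 (−0.51 ± 0.09, adjusted p = 0.000189), the same directions as SFN. In siPAX8 PHLDA3 was called 0.26 higher, which was lost without siNT1 replicate 2 (0.23), siNT2 replicate 1 (0.21) or siPAX8 replicate 1 (0.22), and against siNT2 alone (0.243).

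KITLG, the ligand of the receptor KIT, had the highest value of the members in siPAX8 and in siDual. It lay at 3.30 and 4.08 CPM in siNT1, 3.17 and 3.30 in siNT2, 12.0 and 14.2 in siPAX8, 5.92 and 7.64 in siSOX17, 12.6 and 13.01 in siDual, 6.27 and 7.85 in siMECOM, and 2.00 and 2.26 in siWT1. No group overlapped the controls, and siWT1 alone lay below them. KITLG rose in siPAX8 (1.92 ± 0.13, adjusted p = 2.02e-10), siSOX17 (0.97 ± 0.14, adjusted p = 7.02e-06), siDual (1.89 ± 0.13, adjusted p = 2.59e-10) and siMECOM (1.03 ± 0.13, adjusted p = 6.59e-06), and fell in siWT1 (−0.70 ± 0.15, adjusted p = 0.00149).

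The single knockdowns of PAX8 and SOX17 were compared directly to see where the members told them apart. With siPAX8 against siSOX17, 10 members (29.4%) were called higher and 11 (32.4%) lower, beside 17.6% and 19.8% of all genes. Higher in siPAX8 were TP53INP1 (1.15 ± 0.21, adjusted p = 0.000288), PLK3 (0.97 ± 0.10, adjusted p = 2.75e-07), KITLG (0.95 ± 0.15, adjusted p = 3.86e-05), BTG2 (0.86 ± 0.11, adjusted p = 3.43e-06), SESN3 (0.79 ± 0.25, adjusted p = 0.0187) and SESN1 (0.65 ± 0.14, adjusted p = 0.000798). Lower in siPAX8 were TNFAIP8 (−2.27 ± 0.15, adjusted p = 8e-10), POLH (−1.09 ± 0.10, adjusted p = 4.27e-08), TRIAP1 (−1.04 ± 0.11, adjusted p = 3.4e-07), DDB2 (−0.84 ± 0.18, adjusted p = 0.000921), SFN (−0.69 ± 0.08, adjusted p = 2.71e-06) and BTG1 (−0.68 ± 0.13, adjusted p = 0.000325). Of these, the SESN3 call was lost without siPAX8 replicate 2 (0.43), siSOX17 replicate 1 (0.82) or siSOX17 replicate 2 (0.75) and with DESeq2. The values of MDM2 (−0.01 ± 0.12), ZMAT3 (0.02 ± 0.10) and GADD45B (−0.12 ± 0.12) were not called.

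The double knockdown was set against each single one to see what the second siRNA added. Against siPAX8, 10 members (29.4%) were higher in siDual and 3 (8.82%) lower, beside 11% and 8.55% of all genes. The share called lower was thus near that of all genes. The increases were led by TNFAIP8 (1.45 ± 0.15, adjusted p = 1.68e-06), SFN (0.94 ± 0.09, adjusted p = 2.51e-07), TP53I3 (0.78 ± 0.10, adjusted p = 1.16e-05), TRIAP1 (0.74 ± 0.11, adjusted p = 6.65e-05), PLK2 (0.61 ± 0.08, adjusted p = 2.83e-05) and BTG1 (0.60 ± 0.13, adjusted p = 0.00255), the last of which was lost without siDual replicate 1 (0.39). The decreases were BTG2 (−0.74 ± 0.11, adjusted p = 5.67e-05), PLK3 (−0.38 ± 0.10, adjusted p = 0.00939) and AEN (−0.36 ± 0.11, adjusted p = 0.0262). The PLK3 call was lost without siPAX8 replicate 1 (−0.38), siPAX8 replicate 2 (−0.38) or siDual replicate 1 (−0.34), and the AEN call without siPAX8 replicate 2 (−0.30) or siDual replicate 1 (−0.24). Without siPAX8 replicate 2 or siDual replicate 1 the count of decreases was 1.

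Against siSOX17, 10 members (29.4%) were higher in siDual and 3 (8.82%) lower, beside 7.85% and 7.82% of all genes. Here too the share called lower was near that of all genes. The increases were led by TP53INP1 (0.94 ± 0.22, adjusted p = 0.00545), KITLG (0.92 ± 0.15, adjusted p = 0.000209), SESN3 (0.79 ± 0.25, adjusted p = 0.0413), SESN1 (0.64 ± 0.14, adjusted p = 0.00246), PLK3 (0.60 ± 0.10, adjusted p = 0.000361) and CYFIP2 (0.56 ± 0.09, adjusted p = 0.000283). The decreases were TNFAIP8 (−0.82 ± 0.14, adjusted p = 0.000322), POLH (−0.56 ± 0.10, adjusted p = 0.000428) and CASP8 (−0.37 ± 0.10, adjusted p = 0.0113). The TP53INP1 call was lost without siSOX17 replicate 1 (0.86) or siDual replicate 2 (0.87), and the CASP8 call without siSOX17 replicate 1 (−0.32) or siDual replicate 1 (−0.28). The SESN3 call was lost without siSOX17 replicate 1 (0.82), siSOX17 replicate 2 (0.74), siDual replicate 1 (0.88) or siDual replicate 2 (0.67) and with DESeq2. The count of increases fell to 6 without siSOX17 replicate 1, siSOX17 replicate 2 or siDual replicate 2.

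Whether the double knockdown equalled the sum of the single ones was tested on the log2 scale. The log2 difference of PAX8 itself from the controls was −1.98 in siDual and −2.53 in siPAX8, and its part in the departures from the sum was not tested. Of the 34 members, 10 (29.4%) were lower in siDual than the sum and 5 (14.7%) higher, beside 13% and 12% of all genes. The share above the sum was near the 15.1% of genes with at least 1 CPM in 2 libraries. The members that rose in both single knockdowns supplied the largest shortfalls. PLK3 was 1.6 higher in siPAX8 and 0.63 in siSOX17, a sum of 2.23, and 1.22 in siDual (difference −1.0 ± 0.13, adjusted p = 1.5e-05). KITLG summed to 2.88 and was 1.89 in siDual (−1.0 ± 0.20, adjusted p = 0.000824), and CYFIP2 summed to 2.63 and was 1.82 (−0.81 ± 0.12, adjusted p = 6.55e-05). ZMAT3 (−0.73 ± 0.13, adjusted p = 0.000503), GADD45A (−0.69 ± 0.15, adjusted p = 0.00249) and GADD45B (−0.52 ± 0.15, adjusted p = 0.017) followed. Higher than the sum were MDM2 (0.65 ± 0.16, adjusted p = 0.00419) and XPC (0.61 ± 0.13, adjusted p = 0.00135), whose sums were −1.68 and −1.11, and PLK2 (0.45 ± 0.11, adjusted p = 0.00435), CCNG2 (0.45 ± 0.13, adjusted p = 0.0154) and TRIAP1 (0.40 ± 0.14, adjusted p = 0.046). TP53I3 (−0.16), SFN (0.08), PHLDA3 (0.04) and PERP (−0.01) were not called. Other members were not called although their values were as large as those of called increases. These were SESN3 (0.60), DDB2 (0.55), TNFAIP8 (0.48), MDM4 (0.45) and BTG1 (0.41). Below the sum, the largest values not called were those of RPS27L (−0.33), SESN1 (−0.32) and RRM2B (−0.30). The GADD45B call was lost without siPAX8 replicate 2 (−0.47), siSOX17 replicate 1 (−0.44) or siDual replicate 2 (−0.44), and the CCNG2 call without siPAX8 replicate 1 (0.41), siSOX17 replicate 2 (0.37) or siDual replicate 1 (0.36). TRIAP1 lost its call in 11 of the 14 fits that each left out 1 library (0.36 to 0.44) and with DESeq2. Against siNT1 alone, PLK2 (0.31), CCNG2 (0.37) and TRIAP1 (0.405) were not called. Without siPAX8 replicate 1, siSOX17 replicate 2 or siDual replicate 1 the count above the sum was 3.

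**Figure D4:**
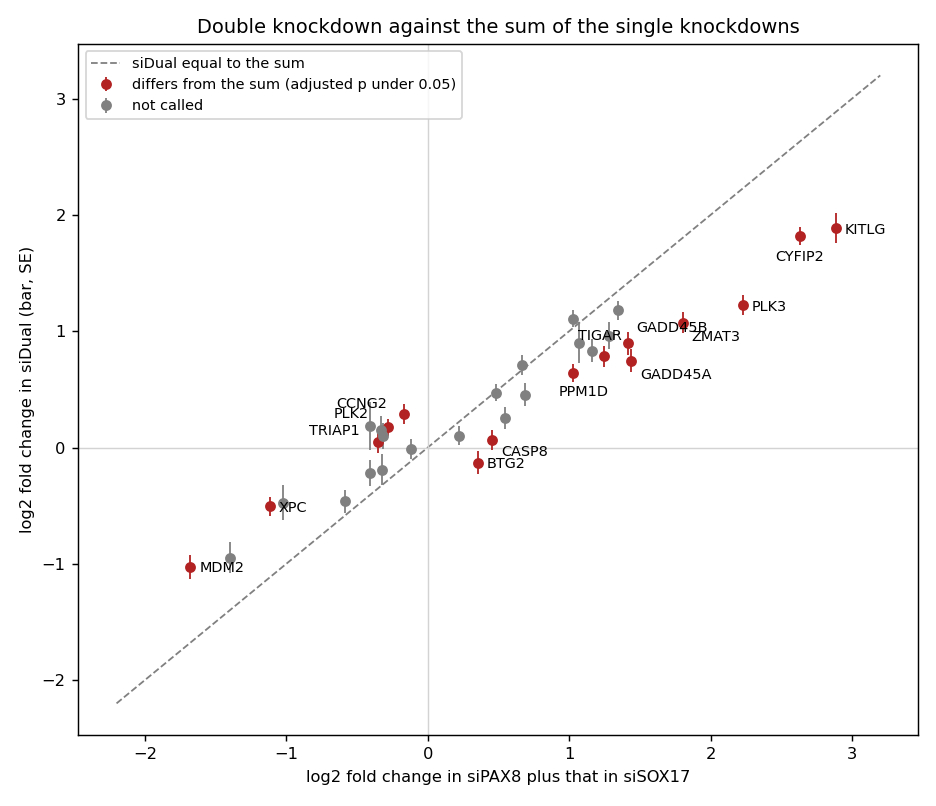
The log2 fold change of the 34 tested members in siDual (vertical axis, with SE) against the sum of their values in siPAX8 and siSOX17 (horizontal axis); the dashed line marks equality, and named red points differ from the sum at an adjusted p under 0.05. PLK3, KITLG and CYFIP2 lie below the line on the right, at sums of 2.23 to 2.88, and MDM2 and XPC above it on the left.

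The other parts of the pathway were read from lists. Of 12 relatives and upstream regulators of p53, 1 was called higher and 7 lower in siPAX8, 2 and 6 in siSOX17, 1 and 8 in siDual, 1 and 2 in siMECOM, and 3 and 2 in siWT1. The shares called lower, 58.3% in siPAX8, 50% in siSOX17 and 66.7% in siDual, stand beside 25.4%, 25.5% and 27.3% of all genes, and the 16.7% in siMECOM and in siWT1 beside 16.1% and 19.8%. The shares called higher, 8.33% in siPAX8, 16.7% in siSOX17, 8.33% in siDual and 8.33% in siMECOM, lay under those of all genes. In siWT1 the 25% stood beside 17.7%, and beside 21.8% of the 16691 genes with at least 1 CPM in 2 libraries. The checkpoint kinases CHEK1 and CHEK2, which phosphorylate p53 after damage, fell in siPAX8 (−1.56 ± 0.08, adjusted p = 7.14e-12, and −1.15 ± 0.09, adjusted p = 2.04e-09), in siSOX17 (−0.86 and −0.97) and in siDual (−1.34 and −1.09). TP63 encodes p63, a relative of p53 that binds the same DNA element. In the controls TP63 was scarce at 0.195 to 0.264 CPM, from 44 counts over 4 libraries. It lay at 0.934 and 1.36 CPM in siPAX8, 1.02 and 1.19 in siSOX17, 1.76 and 1.64 in siDual, 0.616 and 0.682 in siMECOM, and 0.0381 and 0.230 in siWT1. It rose by 2.29 ± 0.32 in siPAX8 (adjusted p = 5.22e-06), 2.24 ± 0.33 in siSOX17 (adjusted p = 1.05e-05), 2.86 ± 0.30 in siDual (adjusted p = 1.36e-07) and 1.48 ± 0.35 in siMECOM (adjusted p = 0.00275). TP73, which encodes the relative p73, lay at 2.60 to 3.11 CPM in the controls, 1.104 and 1.136 in siPAX8, 1.79 and 1.96 in siSOX17, 1.52 and 1.26 in siDual, 3.30 and 2.75 in siMECOM, and 3.64 and 4.54 in siWT1. It fell in siPAX8 (−1.34 ± 0.18, adjusted p = 3.31e-06) and siDual (−1.04 ± 0.17, adjusted p = 4.83e-05), and was called lower in siSOX17 (−0.60, lost without siSOX17 replicate 1, −0.53) and higher in siWT1 (0.53, lost without siWT1 replicate 2, 0.36). Whether p63 or p73 bears on the members was not tested. Of 42 further p53 targets tested, 21 were higher and 9 lower in siPAX8, 21 and 8 in siSOX17, 20 and 9 in siDual, 11 and 9 in siMECOM, and 13 and 10 in siWT1. Their shares called higher, 50% in siPAX8 and siSOX17, 47.6% in siDual, 26.2% in siMECOM and 31% in siWT1, lay above the 26.9%, 27.2%, 28.9%, 16.5% and 17.7% of all genes. Their shares called lower lay under those of all genes in siPAX8 (21.4%), siSOX17 (19%) and siDual (21.4%). They lay somewhat above them in siMECOM (21.4%) and siWT1 (23.8%). Among the 16691 genes with at least 1 CPM in 2 libraries, 18.8% were lower in siMECOM and 23.4% in siWT1. The siWT1 share was thus near that background. Of those genes, 30.9% were higher in siPAX8, 30.6% in siSOX17, 32.6% in siDual, 19.6% in siMECOM and 21.8% in siWT1. Each was under the share of the further targets. Of the 4 well-known targets outside the set, 2 were called higher and 1 lower in siPAX8, 1 and 1 in siSOX17, 2 and 2 in siDual, 1 and 0 in siMECOM, and 1 and 0 in siWT1. CDKN1A, the cell cycle inhibitor p21, rose by 1.49 in siPAX8, 2.14 in siSOX17, 2.26 in siDual and 0.97 in siMECOM, with −0.14 in siWT1, not called. The death effector BAX fell by 0.58 in siSOX17 and 0.55 in siDual, and was called lower in siPAX8 (−0.29), a call lost without siPAX8 replicate 2 (−0.22). Its values in siMECOM (−0.09) and siWT1 (0.11) were not called. BBC3, the death effector PUMA, lay at 1.21 to 1.51 CPM in the controls, fell in siDual (−1.06) and rose in siWT1 (0.96), and was not called in siPAX8 (0.05), siSOX17 (−0.56) or siMECOM (0.22). PMAIP1, the death effector NOXA, was called higher in siPAX8 (0.30) and siDual (0.37), calls lost in siPAX8 without siNT1 replicate 1 (0.27) or siPAX8 replicate 2 (0.22) and in siDual without siDual replicate 2 (0.30), and was not called in siSOX17 (−0.02), siMECOM (−0.27) or siWT1 (0.13).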

How the data were processed

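RNA of OVCAR4 cells was sequenced in 14 libraries, grouped by the siRNA named in each title. The deposited values are raw read counts per gene in whole numbers. The submitters' processing notes name STAR 2.5.1b, featureCounts 1.6.3 and hg38. Annotation, strand setting and filters are not given in the sources used here. Gene names and positions came from GENCODE 29, which matched 57881 of 58219 genes.

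Low counts were removed by filterByExpr in edgeR 4.0.16 (minimum count 10, total 15), TMM scaling was applied, and a quasi-likelihood model with 7 groups and 7 residual degrees of freedom was fitted in R 4.3.3. Benjamini-Hochberg adjustment ran over 21032 genes. Knockdowns were set against the mean of both control groups. Each SE is the log2 fold change divided by the square root of F. The script was tested on simulated data. Every member is described, and the 6 largest called changes in each direction of a comparison carry their statistics. Alternatives included DESeq2 1.42.0, its size factors, other filters, either control alone, a replicate block and the removal of each library. Counts of 40832825 to 49803860 per library set the precision. Promoter sequences are from RefSeq (GRCh38.p14). Deviations of libraries with the same replicate number were weakly correlated (21 pairings, correlations −0.018 to 0.161, 7 over 0.1). Only the correlation of siNT2 with siMECOM was negative. The members and lists were chosen with earlier results of these data known. 1 gene of the regulator list is not reported here.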

Additional observations from a re-analysis of the deposited data

Results flagged for a closer look

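In the 4 control libraries, the highest value stood apart from the others for KITLG, at 4.08 CPM in siNT1 replicate 2, and for SPATA18, at 0.044 CPM from 2 counts in siNT2 replicate 2. Chance flags about 1 in 20 groups, and the controls of all 35 members were screened, so flags of this number can arise by chance.

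The response to PAX8 siRNA differed between cells with and without SOX17 siRNA for 15 members, by the test of siDual against the sum of the single knockdowns. The difference on the log2 scale was negative for PLK3 (−1.0), KITLG (−1.0), CYFIP2 (−0.81), ZMAT3 (−0.73), GADD45A (−0.69), GADD45B (−0.52), BTG2 (−0.48), TIGAR (−0.46), CASP8 (−0.39) and PPM1D (−0.38). It was positive for MDM2 (0.65), XPC (0.61), CCNG2 (0.45), PLK2 (0.45) and TRIAP1 (0.40). Leaving out 1 library ended the call of BTG2 (−0.44 without siPAX8 replicate 2, −0.47 without siSOX17 replicate 2, −0.38 without siDual replicate 2), TIGAR (−0.41 without siPAX8 replicate 1, −0.33 without siDual replicate 1) and PPM1D (−0.34 without siPAX8 replicate 1, −0.36 without siSOX17 replicate 2, −0.35 without siDual replicate 1). It also ended that of CASP8 (−0.34 without siNT1 replicate 1, −0.32 without siPAX8 replicate 2, −0.34 without siSOX17 replicate 1, −0.29 without siDual replicate 1). The like values for GADD45B, CCNG2 and TRIAP1 stand with the comparison. Against siNT1 alone, BTG2 (−0.24), CASP8 (−0.35), PPM1D (−0.34), CCNG2 (0.37), PLK2 (0.31) and TRIAP1 (0.405) also lost the call. Mean levels in siNT1 and siNT2 were 12.3 and 8.85 CPM for BTG2 and 90.9 and 112 CPM for PLK2. The siRNA dose per target in siDual is not stated in the labels.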

How the results depend on the processing

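Over 10 comparisons, 340 member values were tested and 178 called, of which 128 kept their call under every alternative with a value and 50 lost it in at least 1. No called value changed sign, and none was called in the opposite direction. DESeq2 lost 8 calls and gained 3, DESeq2 size factors 3 and 1, no filter 9 and 4, a stricter filter 0 and 4, siNT1 alone 11 and 4, and siNT2 alone 16 and 3. The replicate block lost 0 and gained 11. The labels do not say that replicate numbers pair the libraries, so the block is only an alternative. Between the controls, 1 member (BTG2) was called higher with DESeq2, with the replicate block and with no filter, against 0 in the edgeR fit; without 1 library each the count was 0. The count above the sum of the single knockdowns was 3 with siNT1 alone as control and 3 to 6 when libraries were left out one at a time. When libraries were left out in turn, the count lower in siWT1 ranged from 5 to 8, the count lower in siDual than in siPAX8 from 1 to 3, and the count higher in siDual than in siSOX17 from 6 to 12. Where an arm was left with 1 library, that library is assumed to vary like the other groups. The causes of these moves were not tested beyond the fewer libraries in each fit. With 2 libraries per group and 7 residual degrees of freedom, differences under about 0.25 on the log2 scale were often not called. Some larger ones were not called either, such as the departures of SESN3 (0.60) and DDB2 (0.55) from the sum of the single knockdowns. A value that was not called thus does not show equal expression. Genes near the floor, such as SPATA18, WT1 and TP63, rest on few counts.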
